A study of Mus musculus with 6 samples.

Results

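Barx1, Nkx2-3, Nkx2-5, Nkx3-2, Foxf1, Hand1, Twist1, Prrx1 and Zeb2 are transcription factor genes known from the mesenchyme around the embryonic gut tube, and were taken as a named set of 9 among the 31028 genes of the RNA matrix. The series profiled the pancreatic bud and pancreas of C57BL/6 mice, wild type (Ptf1a+/+, here WT) or homozygous for a deletion of a Ptf1a enhancer (Ptf1aenh-delta/enh-delta, here KO). Single-cell RNA-seq was made from E10.5 tissue, labelled as pancreatic multipotent progenitor cells and dissected by hand. Single-nucleus ATAC-seq was made at E10.5 and from whole E13.5 pancreas. Each dataset pooled embryos, 5 to 9 at E10.5 and 6 at E13.5, and each genotype, stage and assay has 1 library, so there are 6 libraries in all. No difference between them therefore has a replicate check, and no p-value is given. All intervals are 95% intervals that cover counting error only. The labels name no Cre or other restriction of the deletion to a cell type. In the ATAC gene list 8 of the 9 genes were among 8269; Nkx3-2 was not analysed there.

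Mesenchyme of the gut tube derives from splanchnic lateral plate mesoderm, which lies against the endoderm and exchanges Hedgehog, BMP, FGF and WNT signals with it. Foxf1 is switched on in this mesoderm by Hedgehog signals from the endoderm, and NK homeobox factors together with Barx1 divide the mesenchyme along the gut into stomach, pylorus, spleen and intestine regions. The mesenchyme that covers the pancreatic bud borders that of the stomach, duodenum and spleen primordium, and pancreatic epithelium needs it in order to grow. Twist1, Prrx1 and Zeb2 act in mesenchyme more widely, and Twist1 and Zeb2 also in neural crest and in the change of epithelial cells to a mesenchymal form.

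The genes lie at separate places in the genome (RefSeq, GRCm38.p6). Barx1 lies at chr13:48663036-48666507, Nkx2-3 at chr19:43612325-43615892, Nkx2-5 at chr17:26838664-26844988 and Nkx3-2 at chr5:41761483-41764220. Foxf1 lies at chr8:121084386-121088154, Hand1 at chr11:57828713-57832147 and Twist1 at chr12:33957671-33959831. Prrx1 at chr1:163245119-163315145 and Zeb2 at chr2:44983512-45117442 are the longest. RefSeq promoters were matched for 7 of the 9; Foxf1 and Hand1 are named only. The 250 bases before the start site are shown for Barx1 and Prrx1, which held the most and the fewest CpG dinucleotides of the 7, and for Nkx2-3, whose ATAC gene score was the highest of the set. They are written 5′ to 3′ on the gene's strand with each CpG in capitals.
Barx1 (chr13:48662786-48663035, + strand): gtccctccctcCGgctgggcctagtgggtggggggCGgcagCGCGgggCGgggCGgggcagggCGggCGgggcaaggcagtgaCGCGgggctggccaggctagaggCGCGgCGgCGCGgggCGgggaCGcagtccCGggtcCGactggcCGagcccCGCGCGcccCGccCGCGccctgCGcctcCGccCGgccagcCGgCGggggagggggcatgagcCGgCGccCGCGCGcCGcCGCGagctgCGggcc
Nkx2-3 (chr19:43612075-43612324, + strand): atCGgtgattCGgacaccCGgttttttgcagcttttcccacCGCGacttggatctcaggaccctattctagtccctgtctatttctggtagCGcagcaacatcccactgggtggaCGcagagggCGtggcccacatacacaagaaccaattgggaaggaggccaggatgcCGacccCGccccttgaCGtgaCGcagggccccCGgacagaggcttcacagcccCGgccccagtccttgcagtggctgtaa
Prrx1 (chr1:163313651-163313900, - strand): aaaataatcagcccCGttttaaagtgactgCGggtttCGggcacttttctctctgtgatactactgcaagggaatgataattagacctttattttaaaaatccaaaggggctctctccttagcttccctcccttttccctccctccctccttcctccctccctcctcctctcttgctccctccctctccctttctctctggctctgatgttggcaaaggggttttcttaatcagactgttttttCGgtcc
The Barx1 window held 40 CpG at 85.6% GC, more than 98.7% of the 32841 promoter windows in the table, whose median was 6 CpG at 52.4% GC. The Nkx2-3 window held 14 CpG and the Prrx1 window 4. Motif letters were searched on both strands. CANNTG, the E-box core bound by bHLH proteins such as Hand1 and Twist1, was in 66.2% of all windows and once each in those of Nkx2-3, Nkx2-5 and Nkx3-2. CACCTG, a form of it read by Zeb factors and contained in CANNTG, was in 17.2% of all windows and in none of these. GTAAACA, a forkhead core, was in 3.17% of windows and in none of these. TAATTA, a homeobox core, was in 4.84% and once in that of Prrx1. CACTTNA, a core of NK2 factors, was in 10.1% and once in that of Prrx1. A match describes letters only.

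The deleted enhancer's target checks the labels: Ptf1a, a transcription factor that pancreas formation requires, had 111 UMIs (unique molecular identifiers, 1 per captured transcript) in WT epithelium, 42.7 CPM (UMIs per 1e+06 UMIs of the class; 35.1 to 51.4). KO epithelium had none (0 UMIs, an upper limit of 1.25 CPM). A minimum of 1000 detected genes left 451 of 1104 WT barcodes and 369 of 815 KO barcodes as cells, with medians of 6700 and 9856 UMIs. A cell with a UMI of Col3a1, which encodes a fibrillar collagen of connective tissue, was called Col3a1-positive. There were 115 such cells in WT (25.5%, 21.5 to 29.8) and 111 in KO (30.1%, 25.4 to 35.0). The difference of 4.58 percentage points had an interval of -1.55 to 10.8, and was 0.394 points once each cell was thinned to 2000 UMIs (-4.23 to 5.18). It depended on the cutoff: with at least 2 Col3a1 UMIs it was 8.45 points (3.23 to 13.8), with at least 3 it was 4.37 (0.0047 to 9.02), and with no minimum of detected genes 4.12 (0.503 to 7.81), in libraries of unequal depth. Epithelium was defined as cells with no Col3a1 UMI and a UMI of Epcam or Cdh1, the epithelial adhesion genes, and held 245 WT and 199 KO cells. The RNA libraries shared 1 barcode sequence.

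The Col3a1-positive class was not pure mesenchyme. Of its cells, 77 in WT and 79 in KO also held an Epcam or Cdh1 UMI. Their median depths of 14041 and 15386 UMIs were above the 2307 and 3064 of the 38 WT and 32 KO cells with no such UMI. All 10 mesenchyme markers were detected in the class, together at 953 CPM in WT and 872 in KO, against 334 and 306 in epithelium. Epithelial markers stood at 1786 and 2193 CPM in it and endocrine markers at 6255 and 6268. In the cells without epithelial UMIs, mesenchyme markers stood at 1555 and 1707 CPM and epithelial markers at 467 and 1033. Endocrine markers stood at 1400 CPM in WT and 3159 in KO there. These cells were thus not pure mesenchyme either, and their epithelial and endocrine marker levels differed between the libraries. Smooth muscle markers (88.2 and 42.2 CPM) and cardiac markers (101 and 35.96) were lower in the KO class, and endothelial markers were at 81.9 and 107 CPM. Cell doublets were kept; Scrublet, a doublet caller, marked 2 WT and 8 KO cells, of which 1 and 3 were Col3a1-positive. The part of doublets and free RNA in the mixed cells was not tested, so levels are also given for the cells without epithelial UMIs.

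Barx1, a homeobox factor of stomach mesenchyme, was seen in both classes and was higher in Col3a1-positive cells. In Col3a1-positive cells its level was 177 CPM (155 to 202) in WT and 422 CPM (389 to 457) in KO, from 225 and 610 UMIs. In epithelium it was 87.4 and 71.5 CPM, and in the cells of neither class 462 and 609 CPM. In Col3a1-positive cells without epithelial UMIs it was 450 and 759 CPM. The level was thus lowest in epithelium in both libraries, and within the Col3a1-positive class it was higher in cells with no epithelial UMI. A Barx1 UMI was found in 52.2% of WT and 60.4% of KO Col3a1-positive cells, and in 27.3% and 38.7% of epithelium, at median depths of 7870 and 12851 UMIs against 10315 and 10959. After thinning to 2000 UMIs the shares were 26.3% and 34.7% against 12.6% and 5.70%. The barcodes left out for having under 1000 detected genes held Barx1 at 385 CPM in WT and 554 CPM in KO. In them Nkx2-3 was at 84.1 and 100.5 CPM, Foxf1 at 102 and 149, Hand1 at 78.8 and 135, and Zeb2 at 94.9 and 86.1. These genes were thus not limited to the kept Col3a1-positive cells. Whether the epithelial UMIs came from free RNA was not tested.

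The NK homeobox genes differed in how often they were seen. Nkx2-3, a factor of gut and spleen mesenchyme, stood at 52.0 CPM (40.2 to 66.1) in WT and 81.6 CPM (67.5 to 97.7) in KO Col3a1-positive cells, and at 5.00 and 9.98 CPM in epithelium. It was at 123 and 130 CPM in the cells without epithelial UMIs, and at 88.2 and 93.2 CPM in the cells of neither class. Nkx2-3 was thus low in epithelium of both libraries, with a UMI in 4.08% of WT and 7.54% of KO epithelial cells against 25.2% and 39.6% of Col3a1-positive cells. Nkx2-5, a factor of heart, pylorus and spleen mesenchyme, had 9 UMIs in WT and 37 in KO Col3a1-positive cells, 7.09 CPM (3.24 to 13.5) and 25.6 CPM (18.0 to 35.3). Its level was higher in the cells of neither class, 54.6 and 43.5 CPM, and 4.23 and 4.16 CPM in epithelium. Nkx3-2, which acts in mesoderm of the spleen and pancreas region, had 1 UMI in each Col3a1-positive class and 0 in epithelium, which allows up to 1.15 CPM in WT and 1.25 in KO. Its expression was not measurable at this depth.

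Foxf1 and Hand1, the factors of splanchnic and lateral mesoderm, were detected in Col3a1-positive cells of both libraries. Foxf1, a forkhead factor, stood at 59.9 CPM (47.2 to 74.9) in WT and 90.6 CPM (75.7 to 108) in KO. It was at 164 and 195 CPM without epithelial UMIs, and at 17.3 and 10.8 CPM in epithelium. Hand1, a bHLH factor, stood at 55.9 CPM (43.7 to 70.5) and 73.3 CPM (60.0 to 88.7), with 115 and 89.8 CPM without epithelial UMIs and 14.2 and 9.15 CPM in epithelium. The cells of neither class were at 92.4 and 49.7 CPM for Foxf1 and at 42.0 and 74.6 CPM for Hand1. Both genes were therefore lower in epithelium in each library and were not limited to Col3a1-positive cells. A Foxf1 UMI was present in 34.8% of WT and 49.5% of KO Col3a1-positive cells (11.1% and 21.8% thinned), and a Hand1 UMI in 25.2% and 37.8% (9.09% and 13.9% thinned).

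Of the wider mesenchyme factors, only Zeb2 had more than 50 UMIs in each Col3a1-positive class. Zeb2, a zinc finger homeobox factor that represses Cdh1, stood at 92.1 CPM (76.2 to 110) in WT and 35.96 CPM (26.9 to 47.2) in KO. In the cells without epithelial UMIs it was at 131 and 89.8 CPM, from 16 and 18 UMIs, and in epithelium at 6.54 and 24.5 CPM. In the cells of neither class it was at 101 and 31.1 CPM, from 24 and 5 UMIs. In KO the whole Col3a1-positive class lay close to epithelium, while its cells without epithelial UMIs were 3.66-fold higher than epithelium (2.03 to 6.30). Twist1, a bHLH factor of mesenchyme, had 39 UMIs in WT and 4 in KO Col3a1-positive cells, 30.7 CPM (21.8 to 42.0) and 2.77 CPM (0.754 to 7.08). In the cells without epithelial UMIs it had 1 UMI in each library, and in epithelium 3 and 1 UMIs. Prrx1, a homeobox factor of limb and head mesenchyme, had 4 and 2 UMIs in Col3a1-positive cells and 1 and 4 in epithelium, too few to compare.

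**Figure D1:**
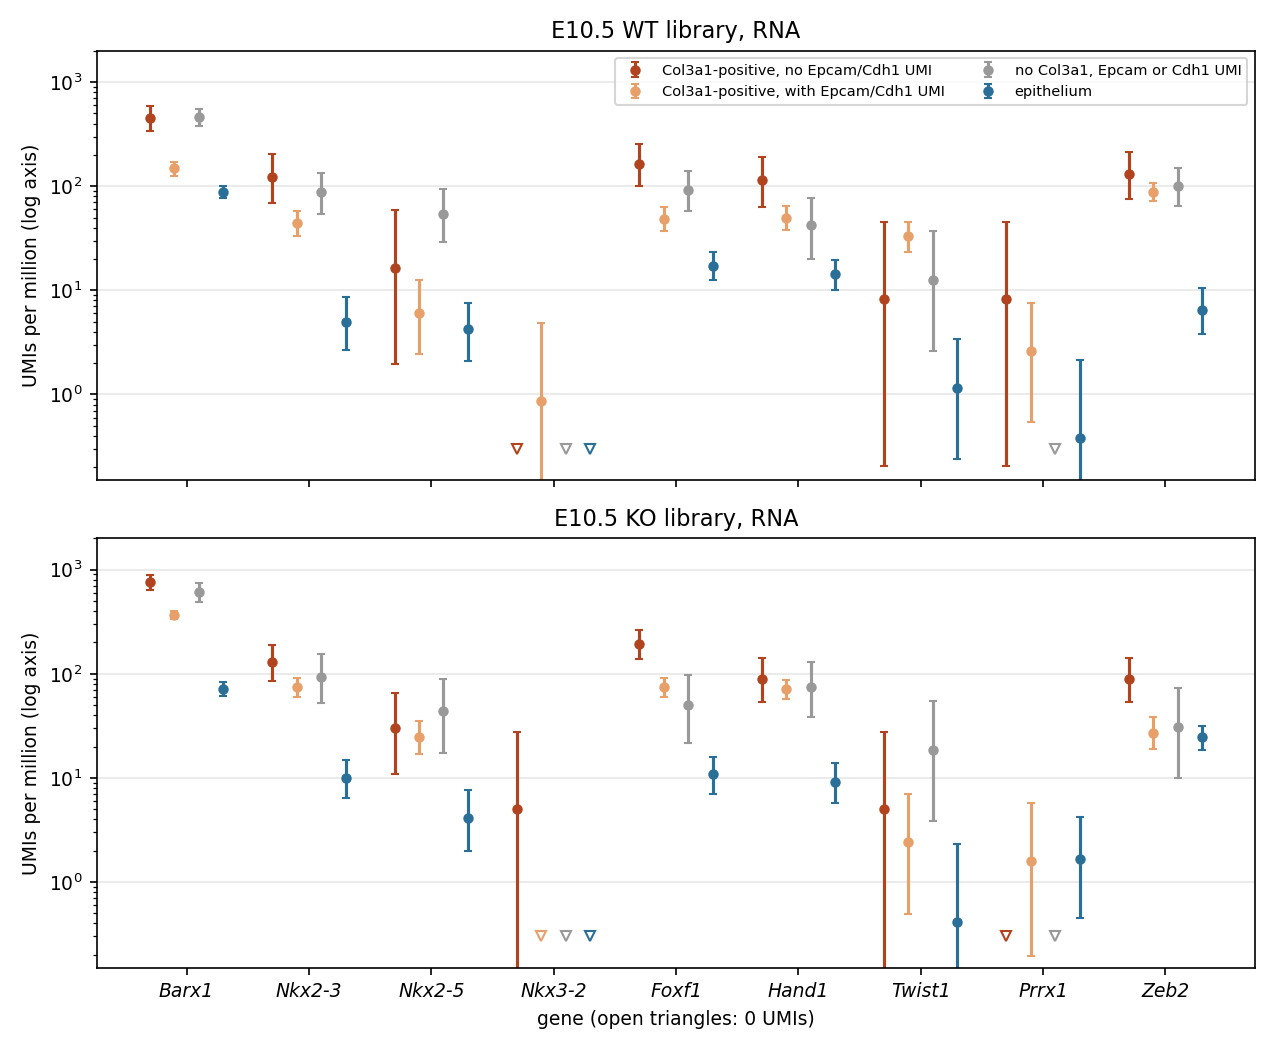
Level of each of the 9 genes in CPM (log axis) in the WT (top) and KO (bottom) library at E10.5, for Col3a1-positive cells without and with an Epcam or Cdh1 UMI, cells of neither class and epithelium. Points are summed levels, bars 95% counting intervals and open triangles 0 UMIs; Barx1, Nkx2-3, Foxf1 and Hand1 are lowest in epithelium in both libraries, and Nkx3-2 and Prrx1 rest on a few UMIs.

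Set against epithelium, Nkx2-3, Foxf1 and Hand1 were at least 2-fold higher in Col3a1-positive cells of both libraries, on a log2 scale of CPM + 10. They were 3 of the 5 members with at least 50 UMIs in the comparison, against 0.576% of the 7812 genes tested in both libraries. Per library the background was 1.06% in WT and 1.07% in KO. The minimum of 50 UMIs was summed over both classes, so a gene low in epithelium could pass it through its Col3a1-positive UMIs. Nkx2-3 had 13 WT and 24 KO UMIs in epithelium against 66 and 118 in Col3a1-positive cells. Foxf1 had 45 in WT and 26 in KO against 76 and 131, and Hand1 37 and 22 against 71 and 106. The same rule applied to all genes, and its part in the count of 3 was not tested. The log2 differences for WT and KO were 2.05 and 2.20 for Nkx2-3, 1.35 and 2.27 for Foxf1, and 1.44 and 2.12 for Hand1. Barx1 was at 2.41 in KO (5.90-fold, 4.97 to 7.03) and just under the threshold in WT at 0.94 (2.03-fold in CPM, 1.68 to 2.45). The WT value passed in cells without epithelial UMIs (2.24), with cluster classes (3.19), with at least 2 Col3a1 UMIs (1.16), after thinning (1.30), without doublet calls (1.03) and with a pseudocount of 1 CPM (1.01). Zeb2 was at 2.63 in WT (14.1-fold in CPM) and 0.41 in KO (1.47-fold, 0.990 to 2.17), and the KO value was 1.53 in cells without epithelial UMIs and 1.36 with cluster classes. With 1 library each, these differences between libraries were not tested. With a pseudocount of 50 CPM in place of 10, 0 of the 5 passed. After thinning, Barx1 was the 1 member with enough UMIs in both libraries, so Nkx2-3, Foxf1 and Hand1 could not be compared.

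The Zeb2 level in KO epithelium was held by few cells. Of its 59 UMIs there, 39 were in the 5 highest of 199 cells, and 3 cells with at least 5 Zeb2 UMIs held 32. In WT epithelium 0 of 245 cells had 5 or more, and the 5 highest held 5 of 17 UMIs. In Col3a1-positive cells the 5 highest held 37 of 117 UMIs in WT and 19 of 52 in KO, so Zeb2 was spread over more cells there.

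Other mesenchyme transcription factors were read from a list of 43. Of those tested, 9 of 19 in WT and 11 of 23 in KO were at least 2-fold higher in Col3a1-positive cells and 0 lower. The share of higher genes over all tested genes was 1.06% in WT and 1.07% in KO. The median log2 difference of the list was 0.99 and 0.96 against 0.05 and 0.03 for all genes. In WT the highest were Hand2 (2.08), a relative of Hand1, Nr2f1 (1.95), a nuclear receptor, and Hlx (1.82), a homeobox factor of gut mesenchyme, and the lowest were Isl1 (-0.22), Foxp1 (0.24) and Tcf4 (0.35). In KO the highest were the homeobox genes Hoxa5 (1.82), Hoxb5 (1.70) and Six2 (1.63), and the lowest were Ebf1 (-0.39), Isl1 (-0.23) and Gata6 (-0.04). Many factors of the list thus stood higher in the class where Nkx2-3, Foxf1 and Hand1 did.

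Mesenchyme signals and their targets, a list of 36, had 5 of 14 tested genes in WT and 5 of 11 in KO at least 2-fold higher. The share over all tested genes was again 1.06% and 1.07%, and the medians of the list were 0.80 and 0.90. The same limit of the summed minimum and of the choice of list holds for these counts. The highest in WT were Tgfb2 (1.90), Pdgfra (1.62) and Sfrp1 (1.56), and in KO Pdgfra (2.43), Aldh1a2 (2.08) and Sfrp1 (2.01). Pdgfra is a growth factor receptor of mesenchyme, Aldh1a2 makes retinoic acid and Sfrp1 is a secreted WNT inhibitor. The lowest were Smo (0.06), Fgf9 (0.29) and Wnt4 (0.34) in WT, and Sfrp5 (-0.32), Wnt4 (-0.21) and Gli3 (0.53) in KO. Of 11 genes that mark epithelial or mesenchymal state, 8 were tested in each library. In WT 1 passed, Cdh2 (1.26), the mesenchymal cadherin, beside Vim (0.68) and Epcam (-0.71); in KO 0 passed, with Vim at 0.83, Cdh2 at 0.54 and Epcam at -0.93.

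Co-detection was counted in the 226 Col3a1-positive cells, within each library, beside the product of the genes' shares. Both genes were seen in more cells than the product for 31 of the 36 pairs. Depth was not equal between the cells: the 73 with a Nkx2-3 UMI had a median of 13781 UMIs and the 153 without 7870. After thinning to 2000 UMIs, 15 of 36 pairs were above the product in 200 cells. Of pairs with a product of at least 1 cell, 25 of 27 were above at full depth and 8 of 13 after thinning. The same counts were 12 of 16 and 2 of 10 in the cells without epithelial UMIs, and 16 of 16 and 2 of 2 in epithelium, so counts above the product were not limited to the Col3a1-positive class. Nkx2-3 and Hand1 shared 43 cells against 24.0 (5 against 3.17 thinned), Foxf1 and Hand1 50 against 30.9 (6 against 4.05), and Barx1 and Foxf1 71 against 54.1 (15 against 10.5). Barx1 and Nkx2-3 shared 47 cells against 41.7, and 7 against 8.25 thinned. Barx1 and Hand1 shared 47 against 40.5, and 4 against 7.22 thinned. Nkx2-3 with Hand1, Foxf1 with Hand1 and Barx1 with Foxf1 were thus above the product at both depths. Barx1 with Nkx2-3 or Hand1 was above it at full depth only. The thinned counts lay within a few cells of the product and have no interval, so they do not separate the pairs.

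Levels on the CPM scale were then compared between cells with and without a partner's UMI, which also differ in depth. Hand1 stood at 128 CPM in Nkx2-3-positive cells and 24.8 in Nkx2-3-negative cells, 5.14-fold (3.60 to 7.49), with 124 against 25.2 in WT and 130 against 24.5 in KO. Barx1 with a Foxf1 UMI was 1.40-fold higher in WT (211 against 151 CPM, 1.07 to 1.83) and 4.62-fold in KO (650 against 141 CPM, 3.69 to 5.84). Nkx2-3 was 2.91-fold and Hand1 2.93-fold higher with a Foxf1 UMI. Barx1 did not differ beyond counting error with and without Nkx2-3, at 309 and 306 CPM (1.01-fold, 0.875 to 1.16). Barx1 with a Hand1 UMI was at 318 against 510 CPM in KO (0.624-fold, 0.525 to 0.739) and at 180 against 176 in WT. Barx1 with a Zeb2 UMI was 1.98-fold higher in WT (1.499 to 2.63) and 0.675-fold in KO (0.556 to 0.816). Foxf1-positive cells thus held more Barx1, Nkx2-3 and Hand1 in each library, while Barx1 differed in direction between the libraries by Zeb2.

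In the 70 cells without epithelial UMIs the interval of the Hand1 and Nkx2-3 relation included 1: Hand1 stood at 92.4 CPM with a Nkx2-3 UMI and 108 without (0.853-fold, 0.401 to 1.83). With a Foxf1 UMI, Nkx2-3 was 0.988-fold (0.5 to 2.04) and Hand1 0.978-fold (0.451 to 2.25), also including 1. Barx1 was lower with a Hand1 UMI in both libraries, at 72.7 against 643 CPM in WT (0.113-fold, 0.0226 to 0.349) and 196 against 1069 in KO (0.184-fold, 0.0978 to 0.319). By Foxf1 it was 0.862-fold in WT (0.476 to 1.53) and 2.31-fold in KO (1.33 to 4.34), and by Zeb2 1.17-fold in WT (0.612 to 2.15) and 0.170-fold in KO (0.0943 to 0.285). Few cells held these KO values. Without the 3 highest Barx1 cells of each library, KO ratios were 0.652 by Hand1 (0.313 to 1.30), 0.585 by Foxf1 (0.293 to 1.22) and 0.612 by Zeb2 (0.302 to 1.21), and the WT ratio by Hand1 was 0.181 (0.0353 to 0.588). The intervals take each UMI as independent, although UMIs of 1 cell are not.

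**Figure D2:**
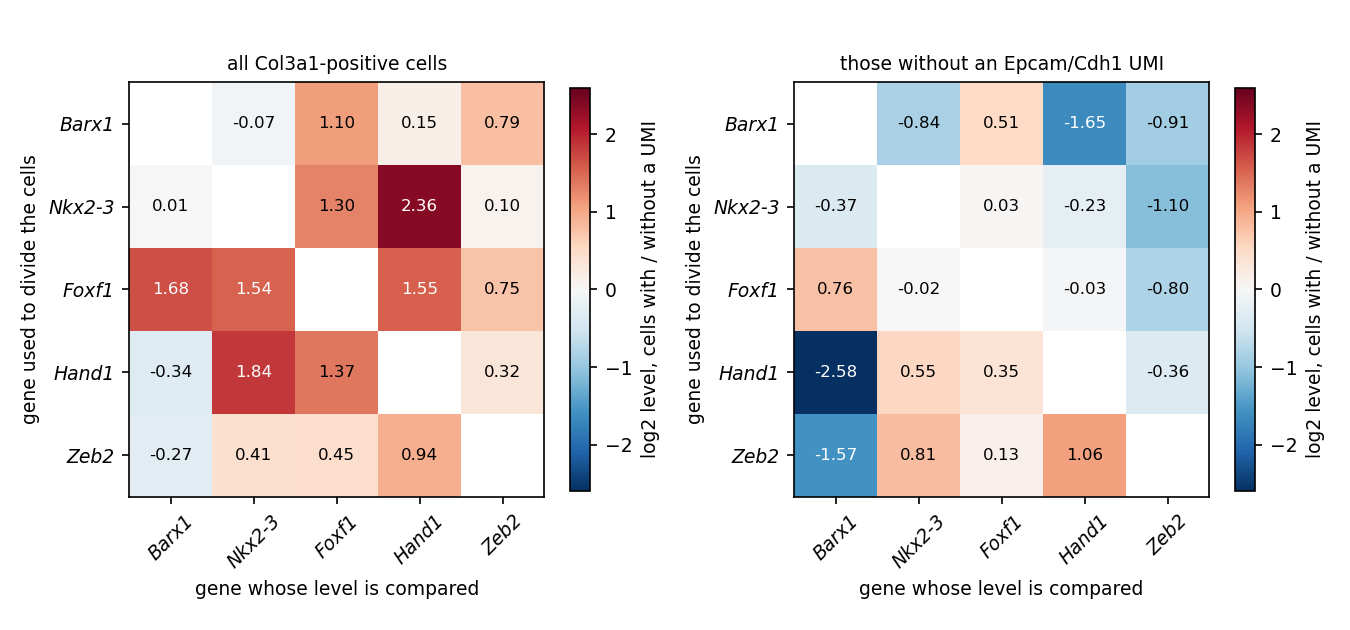
Log2 ratio of the column gene's CPM in cells with a UMI of the row gene over cells without one, for all Col3a1-positive cells (left) and those without an Epcam or Cdh1 UMI (right). Both libraries are summed, and some ratios differ in direction between them. Examples are Barx1 by Zeb2 on both sides, and Barx1 by Foxf1 and Nkx2-3 by Zeb2 on the right. Hand1 is higher with Nkx2-3 on the left and not on the right, and Barx1 is lower with Hand1 on the right.

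At least 3 of the 9 genes were seen in 32.2% of WT and 48.6% of KO Col3a1-positive cells, and in 6.12% and 8.04% of epithelium. After thinning the shares were 5.05% and 4.95%, against 0% and 1.04%. The libraries were apart at full depth and close after thinning, while the classes were apart at both depths.

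Genes most alike to each member across the 226 cells were found by Pearson's r of log-scaled counts among 7303 genes, cells of both libraries sharing their library and depth. For Barx1 they were Ccnd2 (0.43), a D-type cyclin, Six2 (0.38) and Hoxa5 (0.37), both homeobox genes. For Nkx2-3 they were Sfrp1 (0.38), Hoxb2 (0.37) and Tgfbi (0.36), an extracellular matrix protein. For Foxf1 they were Sfrp1 (0.44), Fbn2 (0.39), a fibrillin, and Ptch1 (0.37), the Hedgehog receptor. For Hand1 they were Ppp1r14a (0.35), Foxf1 (0.34) and Nr1h5 (0.34), and for Zeb2 Plagl1 (0.48), Phactr2 (0.46) and Fam111a (0.39). Between members r was 0.34 for Foxf1 and Hand1, 0.26 for Barx1 and Foxf1, 0.24 for Nkx2-3 and Hand1, -0.05 for Barx1 and Nkx2-3, and -0.02 for Barx1 and Hand1.

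Between genotypes, Barx1 and Zeb2 differed by at least 2-fold in Col3a1-positive cells, in opposite directions. Barx1 was 2.38-fold higher in KO (2.04 to 2.79), log2 1.21. Zeb2 was at 0.390 of its WT level in KO (0.276 to 0.546), log2 -1.15. Of the 5 members tested, 1 was thus higher and 1 lower, against 0.602% and 0.26% of 7303 genes. Nkx2-3 (1.57-fold, 1.15 to 2.16) and Foxf1 (1.51-fold, 1.13 to 2.04) were higher with intervals above 1, and Hand1 (1.31-fold, 0.962 to 1.80) was not separated from 1. The median log2 difference over the 5 was 0.53, against 0.11 for all genes. With 1 library each, genotype and library cannot be told apart.

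The size of the Barx1 difference moved with the cells compared. In cells without epithelial UMIs it was 1.69-fold (1.23 to 2.34), log2 0.74. There 1 KO cell held 46 of the 152 KO UMIs, and the ratio was 1.55 (1.09 to 2.25) without the highest cell and 0.907 (0.551 to 1.503) without the 3 highest cells of each library. In the cluster of highest mesenchyme score, 78 WT and 58 KO cells grouped without the 9 genes, it was log2 0.33. That cluster's immune score (3.69) was above its mesenchyme score (3.24), and 91 of its 136 cells were Col3a1-positive. In epithelium it was 0.819-fold (0.668 to 1.00), in the cells of neither class 1.32-fold (0.994 to 1.75), and over all kept cells 1.60-fold (1.44 to 1.78). Barx1 counts reached 26 UMIs in 1 WT cell and 52 in 1 KO cell, and over the whole Col3a1-positive class the ratio without the 3 highest cells of each library was 2.40. For the cells without epithelial UMIs Nkx2-3 (1.06-fold, 0.539 to 2.15), Foxf1 (1.19-fold, 0.677 to 2.15), Hand1 (0.784-fold, 0.368 to 1.70) and Zeb2 (0.686-fold, 0.330 to 1.44) had intervals that include 1. In that cluster they were at log2 1.14, 0.89, 0.24 and -0.94.

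Zeb2 without its 3 highest cells in each library was at 0.364 of the WT level. Over all kept cells it was at 0.752 (0.586 to 0.961), and in epithelium 3.75-fold higher in KO (2.16 to 6.86), where the 5 highest KO cells held 39 of 59 UMIs. Twist1 was at 0.0901 of the WT level in KO (0.0234 to 0.250). Cells that also held an Epcam or Cdh1 UMI carried 38 of the 39 WT and 3 of the 4 KO UMIs. The cells without epithelial UMIs had 1 Twist1 UMI in each library, too few to compare. The WT count of Twist1 was mostly in 3 cells with 12, 12 and 2 UMIs, together 26 of 39. All of these also held Epcam or Cdh1 and Zeb2 UMIs. Without the 3 highest cells of each library 13 WT and 1 KO UMIs were left, 10.8 and 0.721 CPM. Nkx2-5 was 3.61-fold higher in KO (1.71 to 8.51) from 37 against 9 UMIs, and 1.68-fold (1.07 to 2.67) over all kept cells. Smooth muscle and cardiac markers were lower in KO Col3a1-positive cells, as given above, and their part in these differences was not tested.

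**Figure D3:**
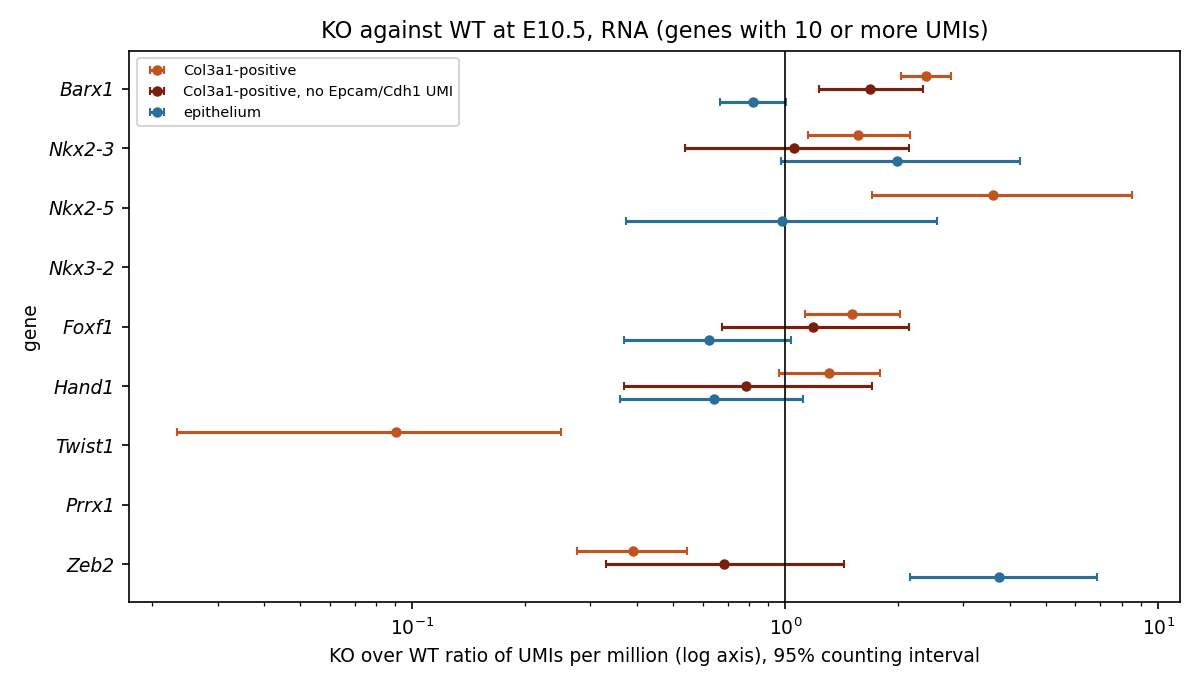
Ratio of CPM in KO over WT (log axis) for each member with at least 10 UMIs, in Col3a1-positive cells, those without an Epcam or Cdh1 UMI, and epithelium; bars are 95% counting intervals and the vertical line marks a ratio of 1. Barx1 lies above 1 and Zeb2 below 1 in Col3a1-positive cells, and both lie nearer to 1 in the cells without epithelial UMIs.

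Of the other mesenchyme factors, 2 of 24 tested were at least 2-fold higher in KO Col3a1-positive cells, against 0.602% of all tested genes. They were Six2 (1.62) and Isl1 (1.22), followed by Hoxa5 (0.64). Isl1 also belonged to the endocrine marker list. As given above, it was not higher in Col3a1-positive cells than in epithelium in either library. Nr2f1 (-1.01) was the 1 lower, against 0.26% of all tested genes, followed by Gata4 (-0.69) and Hlx (-0.60), and the list median was 0.19. Among 16 signals and targets 0 passed in either direction, with a median of 0.18; Aldh1a2 (0.76), Smo (0.72) and Ptch1 (0.43) were highest and Cxcl12 (-0.57), Rspo3 (-0.53) and Igf1 (-0.52) lowest. Among 7 genes of epithelial or mesenchymal state 0 passed, with a median of -0.06, from Krt8 (0.75) and Krt18 (0.52) to Cdh1 (-0.49) and Cdh2 (-0.45).

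In ATAC, each gene has a deposited accessibility score per nucleus, and each nucleus sums to 10000 over the list. Means over all nuclei are given first, in which fewer mesenchymal nuclei and lower accessibility per nucleus cannot be told apart. The Col3a1 score at E10.5 was 0.227 in WT and 0.193 in KO, above 0 in 22.8% and 22.7% of nuclei, beside 16.2 and 17.2 for Sox9, a progenitor factor of pancreatic epithelium. The E10.5 libraries held 838 WT and 700 KO nuclei, with 0 shared barcodes.

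At E10.5 7 of the 8 members were near or above the median gene score of 1.04, and the genotypes differed by less than 1.5-fold for each of the 8. Nkx2-3 scored 3.19 in WT and 3.16 in KO, the 163rd and 185th highest of 8269 genes, above 0 in 77.9% and 81.4% of nuclei. Barx1 scored 2.61 and 2.39 (69.6% and 74% of nuclei) and Nkx2-5 2.22 and 2.25. Foxf1 scored 1.81 and 1.88, Hand1 1.60 and 1.83, and Zeb2 1.32 and 1.35. Twist1 at 1.03 and 1.01 was at the median, and Prrx1 at 0.608 and 0.690 was below it. Gene length and window were not given in the sources used here, so the order between genes describes the scores and not accessibility per base. KO over WT spanned log2 -0.13 for Barx1 to 0.19 for Hand1, with a median of 0.02 against -0.00 for all genes. Barx1 was thus higher in KO RNA of Col3a1-positive cells and not in KO accessibility over all nuclei, in separate libraries and unlike sets of cells. In RNA it was 1.60-fold over all kept cells and 0.819-fold in epithelium, and its size moved with the cells compared, as given above. Pairs of members had r between -0.09 and 0.10 across WT nuclei.

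At E13.5 the libraries held 2314 WT and 602 KO nuclei, with 2 shared barcodes. WT and KO barcodes carry prefixes that name different months, and these cannot be told apart from genotype. Barx1 scored 2.22 in WT and 1.37 in KO (log2 -0.70), Foxf1 1.70 and 1.06 (-0.68) and Twist1 0.764 and 0.487 (-0.65). These were 3 of 8 members at least 1.5-fold lower in KO, against 11.9% of the 8208 genes tested. Nkx2-3 (2.43 and 2.26), Nkx2-5 (1.70 and 1.79), Hand1 (1.46 and 1.31) and Prrx1 (0.438 and 0.423) differed by less, and Zeb2 was higher in KO (1.20 and 1.61, log2 0.43). The median over the 8 was -0.13. In the 217 WT and 108 KO nuclei with a Col3a1 score above 0, Barx1 (-0.49), Foxf1 (-0.42) and Twist1 (-0.56) were also lower in KO, by less than 1.5-fold. These nuclei cannot be read as mesenchyme alone. In WT Pdgfra scored 0.849 in them and 0.916 in the others, and Sox9 16.5 and 15.1. In KO Pdgfra scored 1.11 and 0.593, and Sox9 8.97 and 5.89. The red cell gene Slc4a1 scored 0.80 in the WT and 2.11 in the KO nuclei with a Col3a1 score above 0.

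The E13.5 libraries differed in red blood cell signal. Nuclei in which erythroid markers led every other marker list were 179 of 2314 in WT (7.74%) and 257 of 602 in KO (42.7%). The score of Slc4a1, the red cell anion exchanger, was 1.23 and 5.78, and that of Sox9 15.2 and 6.44. With those nuclei left out, 2135 WT and 345 KO remained and 0 of 8 members were 1.5-fold lower, against 1.02% of genes. Barx1 then scored 2.37 and 2.11 (log2 -0.17), Foxf1 1.79 and 1.75 (-0.03) and Twist1 0.811 and 0.816 (0.01). Zeb2 turned to -0.15 and Prrx1 to 0.54, and the median was 0.067. The E13.5 differences of Barx1, Foxf1, Twist1 and Zeb2 were therefore smaller without the erythroid-led nuclei.

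Between stages, levels were set across tables that were scaled separately. In WT all 8 members scored lower at E13.5 than at E10.5, from log2 -0.47 for Prrx1, -0.43 for Twist1 and -0.40 for Nkx2-3 to -0.09 for Foxf1, with a median of -0.31 against 0.01 for all genes. None was 1.5-fold lower (0 of 8), beside 3.17% of genes. In KO 4 of 8 were, against 17.4% of genes, namely Twist1 (-1.06), Foxf1 (-0.82), Barx1 (-0.81) and Prrx1 (-0.71), and the median was -0.59. Without erythroid-led nuclei the medians were -0.28 in WT and -0.14 in KO. At E10.5 the same rule called 11.1% of WT and 11.3% of KO nuclei. Their Slc4a1 score was 1.22 and 1.25, against 9.33 and 12.2 in those called at E13.5. With Sox9 at 16.6 and 16.3, the nuclei called at E10.5 cannot be read as red cells. Of the other mesenchyme factors 14 of 35 were 1.5-fold lower at E13.5 in WT (median -0.48), and of the signals and targets 5 of 26 (median -0.45), both medians lying below the -0.31 of the members.

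**Figure D4:**
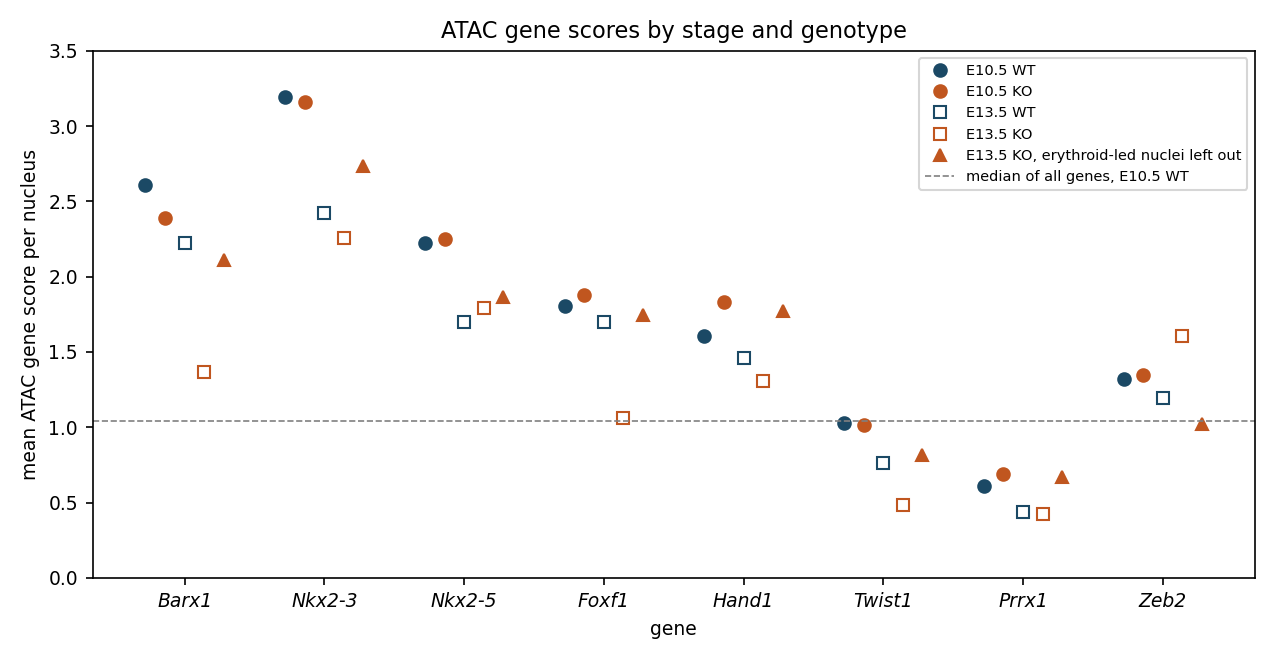
Mean ATAC gene score of the 8 listed members in WT and KO nuclei at E10.5 and E13.5, with triangles for E13.5 KO without erythroid-led nuclei and a dashed line at the median of all genes in E10.5 WT (1.04). The genotypes lie close at E10.5; at E13.5 Barx1, Foxf1 and Twist1 are lower in KO over all nuclei and near WT without the erythroid-led nuclei.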

How the data were processed

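Single-cell RNA-seq (10x Genomics 3′ chemistry) was made at E10.5 and single-nucleus ATAC-seq at E10.5 and E13.5, with 1 library per genotype. The authors deposited raw UMI counts per gene and cell, per the file headers. They deposited ATAC gene signal per nucleus, whose values sum to 10000 in each nucleus. The build was mm10, per the submitters' processing notes; which aligner, counter and gene signal tool were used was not given in the sources used here. RNA libraries held 4665222 (WT) and 4360076 (KO) UMIs, of which kept cells held 4106604 and 4011819.

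UMIs were summed per library and class and scaled to CPM, with exact Poisson intervals, exact conditional intervals for ratios and exact binomial intervals for shares. The interval of a difference in shares is Newcombe's. A count of 0 was bounded at 3 UMIs. Log2 differences used CPM + 10 and genes with at least 50 UMIs over both sides of a comparison together, and 2-fold was the threshold. The 1.5-fold ATAC threshold was chosen after the values were seen, over genes above 0 in at least 10% of nuclei. The code was tested on simulated data. Python 3.11.15, numpy 2.4.6, scipy 1.17.1, pandas 2.3.3, scanpy 1.11.5 and statsmodels 0.14.6 were used. All 9 genes are named, with the 3 genes most alike to each member that had at least 50 UMIs, and the 3 highest and 3 lowest genes of each list. The genes and lists were chosen with earlier results of these data known. Alternatives changed the filters, classes, depth, pseudocount and scaling; left-out highest cells and, outside the E13.5 genotype comparison, left-out erythroid-led nuclei were added after seeing the data. Some marker genes are not reported here.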

Additional observations from a re-analysis of the deposited data

How the results depend on the processing

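With 1 library per group, these limits concern counting error and choices of cells only. Among members that kept 50 UMIs, no log2 difference between classes or genotypes changed sign in RNA under a single alternative. With 2 changes combined, the Barx1 genotype ratio fell below 1. It was 0.907 (0.551 to 1.503) in cells without epithelial UMIs and without the 3 highest cells of each library. The count of 3 members at least 2-fold higher in Col3a1-positive cells (Nkx2-3, Foxf1, Hand1) was 0 with a pseudocount of 50 CPM and 1 after thinning, which is Barx1, the 1 tested. It was 2 of 2 tested without epithelial UMIs (Barx1, Foxf1), 3 of 3 with clusters (Barx1, Foxf1, Zeb2), and 2 to 4 otherwise. The median KO over WT log2 of 0.53 was 0.25 and 0.41 with at least 2 and 3 Col3a1 UMIs, 0.85 after thinning (Barx1 alone tested), 0.33 with cluster classes, 0.36 with a pseudocount of 50 CPM and 0.41 with median-of-ratios scaling. The cluster resolution was set after a lower one gave no mesenchyme cluster. At the resolution used, the cluster taken as mesenchyme was led by immune markers (3.69, mesenchyme 3.24). Another cluster of 107 cells (mesenchyme score 1.92, epithelium 0.222) had 954 CPM of Barx1 and was placed in neither class. Pairs above the product fell from 31 to 15 of 36 after thinning. The E13.5 ATAC median of -0.13 was -0.34 in the middle 80% of nuclei and 0.067, of opposite sign, without erythroid-led nuclei. The difference in Col3a1-positive shares of 4.58 points ranged from 0.394 (thinned) to 8.45 (at least 2 Col3a1 UMIs), and pairs above the product were 24 without epithelial UMIs. The E10.5 ATAC median stayed between 0.02 and 0.05, and the WT stage median between -0.31 and -0.22. Causes were not tested. Members under 50 UMIs (Nkx2-5, Nkx3-2, Twist1, Prrx1) are limited by depth. No paired analysis was possible because each group has 1 library. The numbers in the E10.5 sample titles are not explained by the labels and appear to mark the assay.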
